A study of Homo sapiens with 5 samples.

Results

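The 73 genes described here code, in the nuclear genome, for subunits of the respiratory chain and of the ATP synthase. They were chosen by symbol from the 36601 genes of the count matrix (NDUF with A, B, C, S or V and a number, UQCR, COX4 to COX8 with A, B or C, and ATP5M or ATP5P), a rule that uses the symbols alone. By complex, 36 of them belong to complex I, 9 to complex III, 15 to complex IV and 13 to the ATP synthase, with NDUFA4 counted in complex IV, where its protein is found. They were set beside the 13 protein-coding genes of mitochondrial DNA, whose symbols start with MT-, in nuclei of the lung adenocarcinoma cell lines A549, HCC827, H838, H1975 and H2228. The lines are established cancer lines that were grown untreated, each in its own culture, and then mixed equally for 10X Multiome, an assay that reads RNA and open chromatin (ATAC) under the same barcode. The droplets were divided into an 80% and a 20% portion, and from each came a single library per readout. With 1 library there is no replicate and no test, so the intervals below cover counting error only, and the 20% portion served as a second reading of the same pool of nuclei.

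The respiratory chain passes electrons from NADH, through complexes I, III and IV, to oxygen, and the proton gradient that it builds drives the ATP synthase (complex V). Its subunits come from both genomes: most are coded in the nucleus, translated in the cytosol and imported, while a small set that sits at the core of the same complexes is transcribed and translated inside the mitochondrion. RNA of the nuclear genes is therefore present in a nucleus from its synthesis on, whereas MT- RNA is made outside it. The nuclei were isolated by lysis and sorting, so MT- UMIs here count RNA carried along with them. Known links between the gene sets are the factors NRF1, GABPA and YY1, which bind the promoters of many nuclear respiratory genes.

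The 80% matrix held 6557 nuclei, 95455518 RNA UMIs (molecules counted once each) and 63920767 ATAC counts in 158342 peaks, and the 20% matrix held 1286 nuclei and 14346346 UMIs. Labels that tie a nucleus to its cell line were not used here, and RNA clusters by number stand in for them. The 6 clusters held 2484, 1458, 1450, 473, 363 and 329 nuclei and were numbered 0 to 5 by size. They were made without the members, the MT- genes and the other mitochondrial gene lists. In that order, MEG3, ALDH1A1, LINC02055, AL356804.1, TAGLN and EGFR tell them apart. These genes were taken from earlier results of these data, and the top gene of each cluster over all genes was not sought. The number of clusters was set to 6 and is not a count of lines, and no cluster is called a cell line here. The keratins KRT8 and KRT18 were at 511 CPM (a gene's UMIs scaled to a cluster total of 1000000) or more in every cluster, while the immune markers PTPRC, CD3E and LYZ had 34, 4 and 5 UMIs in all. The clusters were not even in epithelial markers. KRT8, KRT18, KRT7 and EPCAM together took 0.156% of UMIs in cluster 2, 0.251% in cluster 0, 1.00% in cluster 1 and 0.432% to 0.596% in the others. Against the mean of the other clusters, 4 of 4 were at least 1.5-fold lower in cluster 2 (28% of all genes tested) and 3 in cluster 0 (21%). The 9 markers of immune, endothelial and fibroblast cells together took 0.00212% of UMIs in cluster 1 to 0.0254% in cluster 0 and 0.0230% in cluster 4, and 6 of the 9 had fewer than 500 UMIs in all. Most of this was COL1A1, at 242 CPM in cluster 0 and 137 CPM in cluster 4, with COL1A2 at 71.9 CPM in cluster 4 against at most 7.54 CPM elsewhere. All 3 markers with at least 500 UMIs were at least 1.5-fold higher in cluster 4 than the mean of the other clusters (10.8% of all genes tested). In cluster 0, 2 of them were higher (15.4% of all genes tested) and 1 lower (21%). DCN, a further fibroblast marker, had 3 UMIs in all. The part of these markers in the results for clusters 0 and 4 was not tested. Scrublet called 0.552% of the barcodes of cluster 2 and 12.7% of those of cluster 3 doublets, and values without them are given with the alternatives. Barcodes called in both matrices numbered 159, and 143 of them fell in the same cluster in both.

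Of the 73 members, 72 had at least 1 UMI and 67 had at least 500, the minimum for the calls on single genes. Those below were UQCRHL with 258 UMIs, COX6B2 with 118, ATP5MGL with 47, COX8C with 16, COX7A1 with 1 and COX6A2 with 0. COX6A2 and COX7A1 are the heart and muscle forms of their subunits, and COX6B2 and COX8C are known from testis. For COX6A2, 0 of 6557 nuclei allows a share of up to 0.0458% of nuclei with a UMI. UQCRHL and ATP5MGL are copies of UQCRH and ATP5MG, so reads of the near-identical pairs could have been split between them and these counts are uncertain. By GENCODE v44, 10 members overlap another counted gene on the same strand (among them NDUFA13 with YJEFN3, ATP5MF with PTCD1 and NDUFV1 with an unnamed transcript), and their UMIs are uncertain to that extent.

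The promoters of 5 members are shown because they carry the features described here: COX7B2, the member that differed most between clusters, and 4 members with a match to a motif of the factors named above. The 300-base windows run from 250 bases before to 50 bases after a gene's start in RefSeq (GRCh38.p14, the first window listed for each gene), and 61 of the 73 members were matched, 3 of them by an older symbol. Capitals mark matches to GCGCATGCG (NRF1), CCGGAAGT (the ETS motif that GABPA binds) or AAGATGGCG (YY1) on either strand. The window of COX7B2 lies at chr4:46909196-46909495 on the minus strand and held no match, that of COX5B at chr2:97645812-97646111 on the plus strand, that of NDUFA7 at chr19:8321326-8321625 on the minus strand, that of NDUFS7 at chr19:1383657-1383956 on the plus strand and that of ATP5PF at chr21:25735005-25735304 on the minus strand.
COX7B2: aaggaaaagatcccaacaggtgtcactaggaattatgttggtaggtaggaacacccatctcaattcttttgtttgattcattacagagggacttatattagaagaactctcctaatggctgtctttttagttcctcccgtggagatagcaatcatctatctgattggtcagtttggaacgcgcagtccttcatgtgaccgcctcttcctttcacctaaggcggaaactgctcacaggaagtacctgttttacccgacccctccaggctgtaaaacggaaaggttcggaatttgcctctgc
COX5B: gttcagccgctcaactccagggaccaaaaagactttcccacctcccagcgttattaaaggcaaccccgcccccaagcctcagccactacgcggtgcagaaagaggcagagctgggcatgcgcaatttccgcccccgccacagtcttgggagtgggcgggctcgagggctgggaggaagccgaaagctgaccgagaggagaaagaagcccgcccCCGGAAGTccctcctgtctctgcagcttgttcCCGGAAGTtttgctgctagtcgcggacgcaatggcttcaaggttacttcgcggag
NDUFA7: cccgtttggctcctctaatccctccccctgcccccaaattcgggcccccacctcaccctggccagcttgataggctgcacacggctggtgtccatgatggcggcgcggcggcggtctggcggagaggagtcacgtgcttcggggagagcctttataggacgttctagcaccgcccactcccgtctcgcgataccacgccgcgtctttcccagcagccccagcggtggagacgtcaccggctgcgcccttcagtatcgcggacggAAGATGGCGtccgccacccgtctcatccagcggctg
NDUFS7: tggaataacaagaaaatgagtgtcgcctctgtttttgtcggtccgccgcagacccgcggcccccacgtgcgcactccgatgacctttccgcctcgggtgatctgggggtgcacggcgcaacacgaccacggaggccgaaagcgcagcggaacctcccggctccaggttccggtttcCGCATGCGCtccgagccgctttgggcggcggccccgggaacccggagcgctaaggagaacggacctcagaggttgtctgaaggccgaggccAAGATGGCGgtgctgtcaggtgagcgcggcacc
ATP5PF: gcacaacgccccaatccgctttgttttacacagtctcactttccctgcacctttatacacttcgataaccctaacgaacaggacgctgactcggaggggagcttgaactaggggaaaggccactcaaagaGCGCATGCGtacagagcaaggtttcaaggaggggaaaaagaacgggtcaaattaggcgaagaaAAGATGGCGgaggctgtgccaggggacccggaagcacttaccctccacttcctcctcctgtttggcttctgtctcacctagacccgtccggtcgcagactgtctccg

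COX5B, which codes for a nuclear subunit of complex IV, holds the ETS letters at 2 places of its window, and NDUFS7 and ATP5PF hold both the NRF1 and the YY1 letters. Over the 61 windows, the NRF1 letters were found in 8 (13.1%), the ETS letters in 9 (14.8%) and the YY1 letters in 7 (11.5%), and 22 windows (36.1%) held at least 1 of the 3. Among all 27305 promoters of that length the shares were 2.10%, 4.44% and 1.85%, and 7.86% for any of them. Among the 9521 promoters of genes with at least 500 UMIs they were 3.91%, 9.28% and 4.13%, and 16.2%. The motif of NRF1 reads nearly the same on both strands, so a pair of matches 1 base apart, as in NDUFB4 and NDUFA8, is a single stretch of letters, and no window had matches of different motifs that overlapped. For YY1, 6 of the 7 matches began between positions 261 and 276 of the window, just after the start of the gene, and ATP5PF had its match at position 194, before the start. A match is a description of letters and not a bound site, since no factor was measured. Of the 61 windows, 57 overlapped an ATAC peak of these nuclei.

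The members took 1.37% of all UMIs (95% interval 1.37 to 1.37%), or a median of 182 UMIs per nucleus, and the 13 MT- genes took 0.736% (0.734 to 0.737%), a median of 79 UMIs per nucleus. By cluster, the members took 1.24% in cluster 0, 1.5003% in cluster 1, 1.54% in cluster 2, 1.46% in cluster 3, 1.38% in cluster 4 and 1.26% in cluster 5. Cluster 2 was highest and cluster 0 lowest, and the ratio between them was 1.24 (95% counting interval 1.23 to 1.25). The MT- genes took 0.5004% in cluster 0, 0.883% in cluster 1, 0.652% in cluster 2, 1.03% in cluster 3, 1.24% in cluster 4 and 1.51% in cluster 5. Here cluster 5 was highest, cluster 0 was again lowest, and the ratio was 3.01 (2.98 to 3.03). The order of the clusters was therefore not the same in both sets: cluster 5 had the most MT- RNA and the second least RNA of the members, and cluster 2 the most RNA of the members and the second least MT- RNA.

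**Figure D1:**
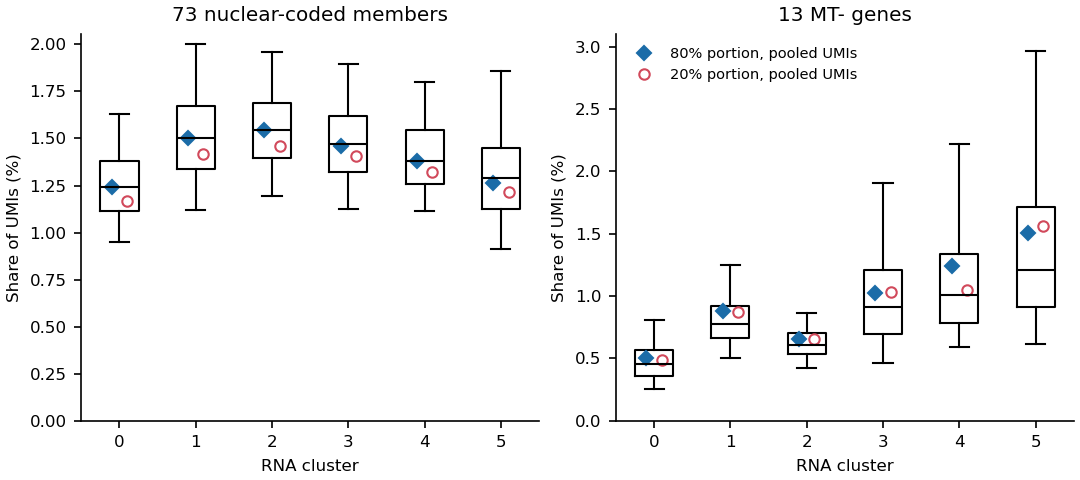
Share of a nucleus's UMIs (%, y axes from 0) on the 73 members (left) and on the 13 MT- genes (right) in the 6 RNA clusters (x axes). Boxes show the middle 50% of nuclei of the 80% portion with the median, whiskers run from the 5th to the 95th percentile, filled diamonds are pooled UMIs of the 80% portion and open circles those of the 20% portion; the members' pooled shares lay between 1.24% and 1.54%, those of the MT- genes between 0.5004% and 1.51%.

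In the 20% portion the members took 1.17% in cluster 0, 1.42% in cluster 1, 1.46% in cluster 2, 1.40% in cluster 3, 1.32% in cluster 4 and 1.21% in cluster 5. These shares were lower than those of the 80% portion in 6 of 6 clusters, by ratios of 0.937 to 0.964, but clusters 2 and 0 were again highest and lowest, with a ratio of 1.25. The MT- genes took 1.56% in cluster 5 and 0.488% in cluster 0, again the highest and the lowest, with a ratio of 3.21. In cluster 4 their share was 1.05%, against 1.24% in the 80% portion.

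Within a cluster, the share of UMIs on the members varied little between nuclei, with a coefficient of variation of 14.97% to 23.3%, of which counting alone gives 6.55% to 8.68%. That of the MT- genes varied more, at 48.6% to 91.4%, with 7.64% to 12.0% from counting. Over all 6557 nuclei, which share a library and a denominator, Spearman's rho between both shares was 0.31, and within clusters it ran from -0.09 in cluster 3 to 0.27 in cluster 1. At an equal depth of 5000 UMIs per nucleus, reached by 6456 nuclei (101 were shallower), it was 0.25 over all nuclei and between -0.06 and 0.22 within clusters. Such weak values in sparse counts carry no finding. The members' share went more closely with other nuclear-coded RNA: within clusters, rho with the share of the 84 cytosolic ribosomal protein genes was 0.46 to 0.64, and with the 17 respiratory and ATP synthase genes that the symbol rule leaves out it was 0.45 to 0.55. Neither of these comparisons was repeated at equal depth.

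The share on the members fell with depth. In the tenth of nuclei with the fewest UMIs (median 6740) the median share was 1.58%, and in the tenth with the most (median 26865.5) it was 1.25%, with no rise at any step between. Ribosomal protein genes moved with it, from 12.2% to 10.4%. Within clusters, rho of the members' share with depth was -0.13 in cluster 2 to -0.41 in cluster 5. The clusters differed in depth too, with medians of 15406 UMIs in cluster 0, 9136 in cluster 1, 12672 in cluster 2, 17572 in cluster 3, 14485 in cluster 4 and 11985 in cluster 5. Cluster 3 was the deepest and had a share of 1.46%, above that of clusters 0, 4 and 5. Cluster 0 was the second deepest and had the lowest share, 1.24%. Cluster 1 was the shallowest and had the second highest share, 1.5003%. The part of depth in the order of the clusters was not tested.

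Summed by complex, the members differed by 1.32-fold to 1.42-fold between their highest and lowest clusters. Complex I, which takes electrons from NADH, summed to 5141 CPM in cluster 0, 5481 in cluster 1, 5918 in cluster 2, 6041 in cluster 3, 6221 in cluster 4 and 4713 in cluster 5, and was highest in cluster 4 and lowest in cluster 5. Complex III, which hands electrons to cytochrome c, was highest in cluster 2 at 2045 CPM and lowest in cluster 0 at 1506 CPM. Complex IV, the oxidase that reduces oxygen, was highest in cluster 1 at 4697 CPM and lowest in cluster 4 at 3298 CPM, beside 3307 CPM in cluster 0. The ATP synthase was highest in cluster 2 at 3397 CPM and lowest in cluster 0 at 2479.9 CPM. No cluster was thus highest for every complex: cluster 4 led complex I and was last for complex IV. The MT- genes of each of the 4 complexes were highest in cluster 5 and lowest in cluster 0, by 2.82-fold (complex I) to 3.62-fold (ATP synthase).

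Single members spread further than their sums. For each gene with at least 500 UMIs, the CPM of a cluster was set against the unweighted mean of the other 5, and a gene was called where they differed by at least 1.5-fold either way. Of the 67 members, 29 (43.3%) were called in at least 1 cluster, against a background of 77.4% of all 12440 genes tested. Among genes with at least 10000 UMIs, where counting error is small, it was 18 of 52 members (34.6%) and 66% of 1972 genes. By complex, 17 of 36 members were called in complex I, 5 of 8 in complex III, 3 of 11 in complex IV and 4 of 12 in the ATP synthase. The median member differed 1.75-fold between its highest and lowest cluster and the median gene 2.47-fold. With at least 10000 UMIs it was 1.67-fold and 2.12-fold. A member's UMIs in a cluster numbered 1943 at the median, for which the counting interval reaches 4.40% below the value. COX7B2, with 857 UMIs, passed the minimum only through cluster 2, so it had to differ. The 29 of 67 members and the 3 of 11 in complex IV include it, and without it 28 of 66 members (42.4%) were called. It is kept out of the counts by cluster that follow, which cover 66 members and 47 calls. These 47 calls came from 28 members. Calls of the same gene are linked, since each cluster is part of the mean that the others are set against.

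**Figure D2:**
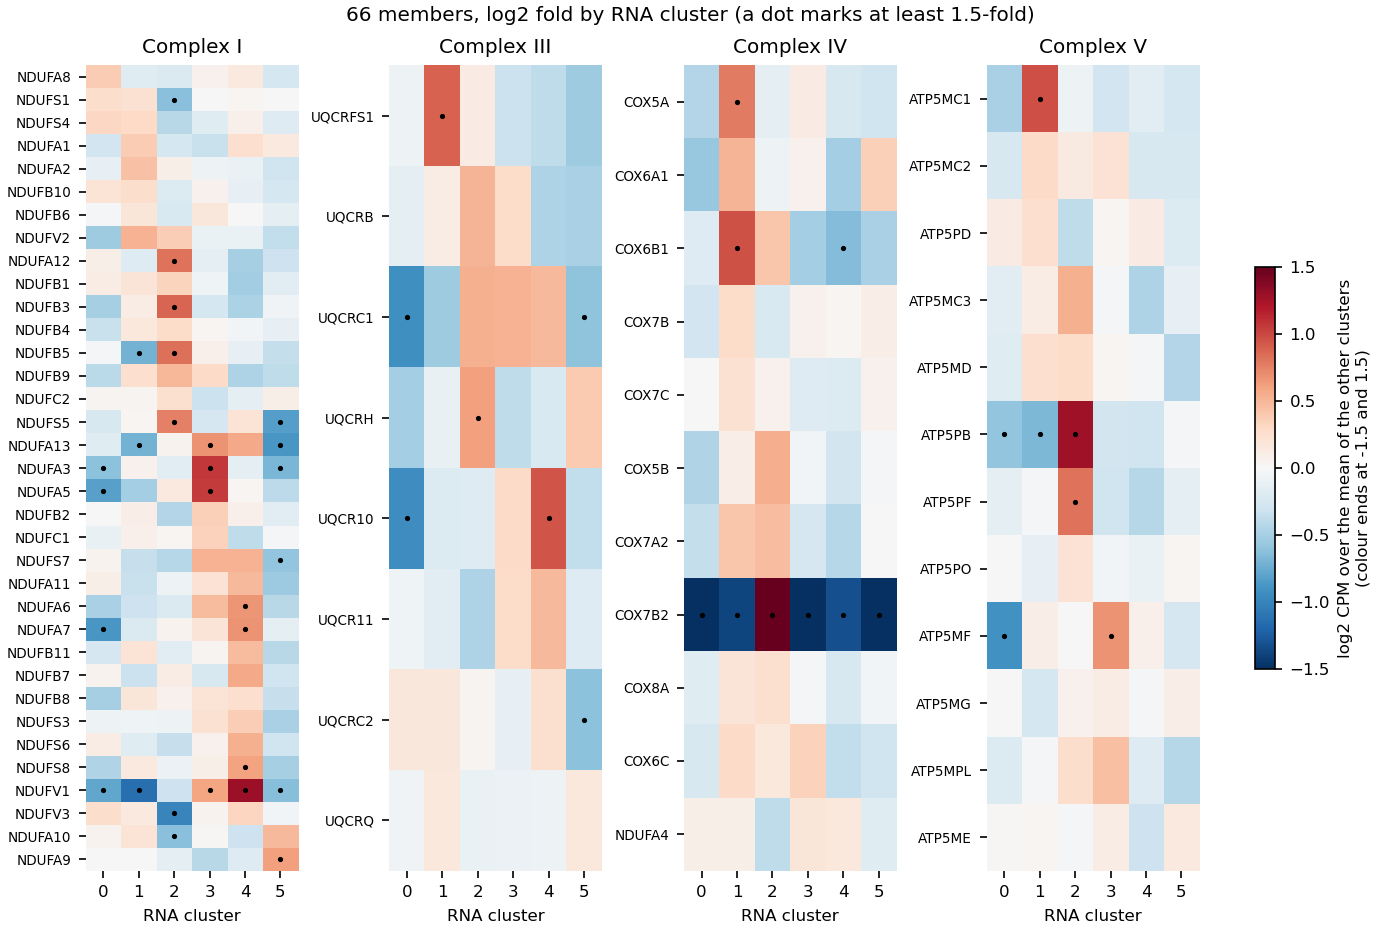
Heat maps of 66 of the 67 members with at least 500 UMIs (rows, by complex) in the 6 RNA clusters (columns) of the 80% portion, coloured by log2 of the CPM over the mean CPM of the other clusters, with the colour ending at -1.5 and 1.5. A dot marks at least 1.5-fold either way; no member was that much higher in cluster 0, and apart from COX7B2 the members furthest up were NDUFV1 in cluster 4 and ATP5PB in cluster 2.

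In cluster 0, 8 of the 66 members were lower by at least 1.5-fold (background 21%) and 0 were higher (background 15.4%). UQCR10, a small subunit of complex III, was at 92.8 CPM in cluster 0, 144 in cluster 1, 145 in cluster 2, 191 in cluster 3, 272 in cluster 4 and 131 in cluster 5. UQCRC1, a core protein of the same complex, was at 70.6 CPM in cluster 0, 89.7 in cluster 1, 166 in cluster 2, 165 in cluster 3, 162 in cluster 4 and 86.2 in cluster 5. Both were lowest in cluster 0, at 0.525 and 0.528 times the mean of the other clusters. The other members called there were ATP5MF, ATP5PB, NDUFA3, NDUFA5, NDUFA7 and NDUFV1. The members furthest above the others in cluster 0 were the complex I subunits NDUFA8, NDUFS4 and NDUFS1, at 1.30, 1.24 and 1.20 times, none of them called.

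In cluster 1, 4 of 66 members were higher (background 13.9%) and 4 lower (background 23.6%). The higher ones came from 3 complexes. ATP5MC1, which codes for the ring subunit of the ATP synthase, was at 164 CPM in cluster 0, 369 in cluster 1, 210.0 in cluster 2, 186 in cluster 3, 199 in cluster 4 and 188 in cluster 5. COX6B1, a subunit of complex IV on the side of the intermembrane space, was at 249 CPM in cluster 0, 466 in cluster 1, 353 in cluster 2, 206 in cluster 3, 189 in cluster 4 and 208 in cluster 5. UQCRFS1, the Rieske iron-sulfur protein of complex III, was at 183 CPM in cluster 0, 310.0 in cluster 1, 206 in cluster 2, 159 in cluster 3, 154 in cluster 4 and 139.9 in cluster 5. Cluster 1 was highest in each of these genes, at 1.95, 1.94 and 1.84 times the mean of the other clusters, and COX5A, a further subunit of complex IV, was at 1.72 times. The lower ones were NDUFV1 (0.456 times), NDUFA13 (0.612 times), ATP5PB and NDUFB5.

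In cluster 2, 8 of 66 members were higher (background 18.3%) and 3 lower (background 28%). ATP5PB (ENSG00000116459, chr1:111448864-111462773 on the plus strand, GRCh38), a subunit of the stalk that holds the ATP synthase still, was at 161 CPM in cluster 0, 154 in cluster 1, 449 in cluster 2, 195 in cluster 3, 193 in cluster 4 and 228 in cluster 5, which is 2.41 times the mean of the other clusters. NDUFB3, in the membrane arm of complex I, was at 121 CPM in cluster 0, 173 in cluster 1, 261 in cluster 2, 139 in cluster 3, 122 in cluster 4 and 157 in cluster 5. Cluster 2 was highest in both. ATP5PF, which belongs to the same stalk as ATP5PB, was higher as well, at 1.77 times, and so were, among others, NDUFA12, NDUFB5 and NDUFS5 of complex I and UQCRH, the hinge protein of complex III. In the other direction, NDUFV3, a small subunit beside the NADH site of complex I, was at 51.4 CPM in cluster 0, 48.3 in cluster 1, 24.3 in cluster 2, 45.7 in cluster 3, 53.4 in cluster 4 and 43.2 in cluster 5. The core subunit NDUFS1 and the accessory subunit NDUFA10 were at 0.646 and 0.648 times the mean of the others. In the 20% portion NDUFA10 fell short of the call in cluster 2, at 0.751 times.

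In cluster 3, 5 of 66 members were higher (background 10.7%) and 0 lower (background 19.1%). NDUFA3, an accessory subunit of complex I, was at 35.8 CPM in cluster 0, 53.7 in cluster 1, 47.2 in cluster 2, 91.3 in cluster 3, 47.8 in cluster 4 and 34.2 in cluster 5. NDUFA5, another accessory subunit, was at 47.5 CPM in cluster 0, 57.3 in cluster 1, 84.4 in cluster 2, 136 in cluster 3, 78.9 in cluster 4 and 61.5 in cluster 5. Both were highest in cluster 3, at 2.09 and 2.07 times the mean of the other clusters. NDUFA13, an accessory subunit also known as GRIM-19, was at 439.6 CPM in cluster 0, 319.9 in cluster 1, 505 in cluster 2, 709 in cluster 3, 673 in cluster 4 and 289 in cluster 5, so clusters 3 and 4 were high and clusters 1 and 5 low. ATP5MF and NDUFV1 were the other members called. COX6B1 and NDUFA9 were lowest against the other clusters, at 0.702 and 0.750 times, and were not called.

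In cluster 4, 5 of 66 members were higher (background 10.8%) and 1 lower (background 21%). NDUFV1 (ENSG00000167792, chr11:67605653-67612554 on the plus strand, GRCh38), the complex I subunit that binds NADH and FMN, was at 107 CPM in cluster 0, 86.2 in cluster 1, 144 in cluster 2, 239 in cluster 3, 338 in cluster 4 and 118 in cluster 5. Apart from COX7B2, no member spread further: NDUFV1 was 3.92 times as high in cluster 4 as in cluster 1, and it was called in 5 of the 6 clusters. UQCR10 was 1.93 times the mean of the other clusters, NDUFA7 1.60 times, and NDUFA6 and NDUFS8 were the others. The iron-sulfur subunit NDUFS8 has its gene on chromosome 11, as NDUFV1 does. COX6B1 was the lower one, at 0.637 times, and NDUFB1 came next at 0.694 times without a call, though in the 20% portion it passed, at 0.611 times.

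In cluster 5, 1 of 66 members was higher (background 10.1%) and 8 were lower (background 25.1%). NDUFA9, an accessory subunit of complex I, was the higher one, at 94.5 CPM in cluster 0, 94.9 in cluster 1, 88.0 in cluster 2, 74.5 in cluster 3, 84.9 in cluster 4 and 134 in cluster 5, or 1.54 times the mean of the others, and it missed the call in the 20% portion, at 1.34 times. NDUFA10 and UQCRH followed at 1.40 and 1.31 times. In the other direction, NDUFA13 was at 0.546 times the mean of the others, and the rest included NDUFA3, NDUFS5, NDUFS7, NDUFV1, UQCRC1 and UQCRC2. Cluster 5 thus had 8 of the 9 members called there below the others. Calls over all genes leaned the same way there, with 25.1% lower and 10.1% higher, and the 8 are only 12.1% of the 66 members. Of the 13 MT- genes, 8 were at least 1.5-fold above (background 10.1%).

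These counts depend on the scale. The median log2 value of all 12440 genes lay below 0 in every cluster, from -0.04 in cluster 0 to -0.18 in cluster 5. Of the 53 calls of the 67 members, 24 (45.3%) were in the higher direction. With the values of a cluster centred on the median of all genes, it was 39 of 55 (70.9%). Both counts include COX7B2, which was called higher in cluster 2 and lower in every other cluster. Part of the calls in the lower direction are therefore those of this gene, which had to differ. Over all genes the share in the higher direction went from 36.5% to 44.9%. After centring, 14 members were higher and 1 lower in cluster 2, 10 and 1 in cluster 4, and 2 and 4 in cluster 5. In cluster 0 it was 0 higher and 7 lower. These counts include COX7B2, which is the 1 lower member in cluster 4.

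COX7B2 (ENSG00000170516, chr4:46734827-46909245 on the minus strand, GRCh38) codes for a form of a complex IV subunit that is known from testis, beside the general form COX7B. It was at 1.88 CPM in cluster 0, 3.47 in cluster 1, 35.2 in cluster 2, 2.99 in cluster 3, 3.59 in cluster 4 and 1.23 in cluster 5, with counting intervals of 32.6 to 38.0 CPM in cluster 2 and 0.453 to 2.69 CPM in cluster 5, where it rested on 6 UMIs. Only cluster 2 was high. Of the UMIs of both genes, COX7B2 took 12.8% in cluster 2 (95% exact interval 11.9 to 13.7%) and 0.424% to 1.27% in the other clusters, and in the 20% portion it took 12.8% in cluster 2. COX7B itself did not mirror this, with 232 CPM in cluster 0, 321 in cluster 1, 240.3 in cluster 2, 284 in cluster 3, 279 in cluster 4 and 290.1 in cluster 5. The peak at the start of COX7B2, chr4:46908833-46909688, held 51 ATAC counts in all. It was at 4.49 CPM of ATAC counts in cluster 2, while no other cluster exceeded 0.355 CPM. These counts are below the minimum for the ATAC calls, so no call was made, and the values have no counting interval. Whether the peak would be listed without the nuclei of cluster 2 was not tested, so it is no separate check of the RNA.

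The other restricted forms stayed minor in every cluster. COX6B2 reached 2.16% of the UMIs of COX6B1 and COX6B2 in cluster 3 (1.56 to 2.92%) and at most 0.810% elsewhere, on 118 UMIs in all. In the 20% portion cluster 5 was highest instead, at 2.01%, with 1.57% in cluster 3. COX8C was at most 0.257% of COX8A and COX8C. COX7A1 had 1 UMI beside 28894 of COX7A2, and COX6A2 had 0 beside 48104 of COX6A1. Of these 5 pairs, the widely expressed partner therefore held at least 87.2% of the UMIs in every cluster.

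ATP5MC1, ATP5MC2 and ATP5MC3 code for the same ring protein with different import signals, which are cut off. ATP5MC1 took 18.6% in cluster 0, 29.4 in cluster 1, 17.3 in cluster 2, 18.2 in cluster 3, 23.8 in cluster 4 and 20.5 in cluster 5 of the UMIs of the 3 genes. Cluster 1 stood out, with an interval of 28.8 to 30.1%, and in the 20% portion the share there was 28.4%, again the highest. ATP5MC2 took 27.8% in cluster 0, 26.4 in cluster 1, 25.1 in cluster 2, 31.2 in cluster 3, 29.2 in cluster 4 and 26.7 in cluster 5, a narrower range. ATP5MC3 held the rest, from 44.1% in cluster 1 to 57.6% in cluster 2. In CPM, ATP5MC2 in cluster 1 was at 332 and ATP5MC3 at 553, so neither was low there; ATP5MC1 was high.

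**Figure D3:**
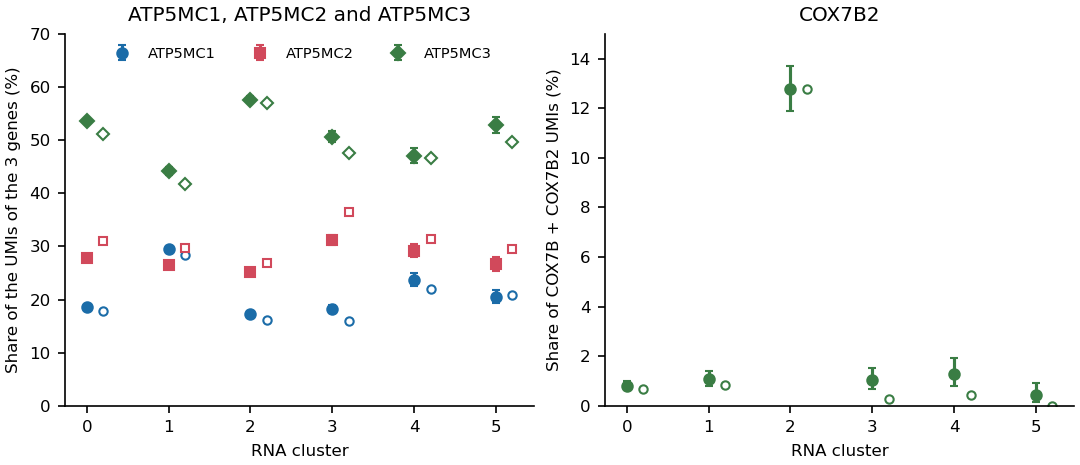
Left, share (%) of ATP5MC1, ATP5MC2 and ATP5MC3 in their summed UMIs by RNA cluster; right, share (%) of COX7B2 in the UMIs of COX7B and COX7B2. Filled marks are the 80% portion with exact 95% binomial intervals and open marks the 20% portion; ATP5MC1 reached 29.4% in cluster 1 and COX7B2 12.8% in cluster 2.

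At the other end, 15 of the 67 members (22.4%) and 8.34% of all genes tested kept within 1.5-fold between their highest and lowest clusters. Among genes with at least 10000 UMIs it was 14 of 52 members (26.9%) and 14.3% of 1972 genes. The steadiest, singled out after their values were seen, were UQCRQ of complex III, at 223 CPM in cluster 0, 252 in cluster 1, 217 in cluster 2, 218 in cluster 3, 219.8 in cluster 4 and 252 in cluster 5, and ATP5PO, a stalk subunit of the ATP synthase, at 131 CPM in cluster 0, 122 in cluster 1, 148 in cluster 2, 128 in cluster 3, 123 in cluster 4 and 132 in cluster 5. The highest cluster was 1.16 and 1.22 times the lowest. ATP5PO and ATP5PB, whose proteins share the stalk, thus differed 1.22-fold and 2.92-fold between clusters.

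The calls came back in the 20% portion. Its nuclei were given to the clusters by their RNA without the mitochondrial lists, and of the 47 calls, 47 had the same direction there and 38 (80.9%) again passed 1.5-fold. For the MT- genes it was 30 and 27 of 30, and for all genes 98.0% and 83.3% of 26994. Most of the latter genes also gave the 20% nuclei their clusters, while the members did not, so these rates are not like for like. Without the shared barcodes the numbers for the members were again 47 and 38. Both portions come from 1 pool of nuclei, so this covers the library steps and not the cultures.

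Chromatin at the gene starts, read in the same nuclei, is a separate readout that did not enter the clusters. A peak lay within 1000 bp of the start of 70 of the 73 members and of all 67 with at least 500 UMIs, against 62.6% of 36588 genes and 96.7% of those with at least 500 UMIs. UQCRHL, COX7A1 and ATP5MGL had none. The peaks at the starts of the members took 0.250% of all ATAC counts, and by cluster 0.240%, 0.270%, 0.278%, 0.243%, 0.239% and 0.226% from cluster 0 to cluster 5. Cluster 2 was highest, as in RNA, and cluster 5 lowest, with a ratio of 1.23 (1.20 to 1.26). With 500 ATAC counts or more at the start, 43 of 67 members (64.2%) were called in at least 1 cluster, against a background of 72%. These are not quite the 67 members with at least 500 UMIs: 66 are in both sets, COX7B2 drops out and COX6B2 comes in.

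**Figure D4:**
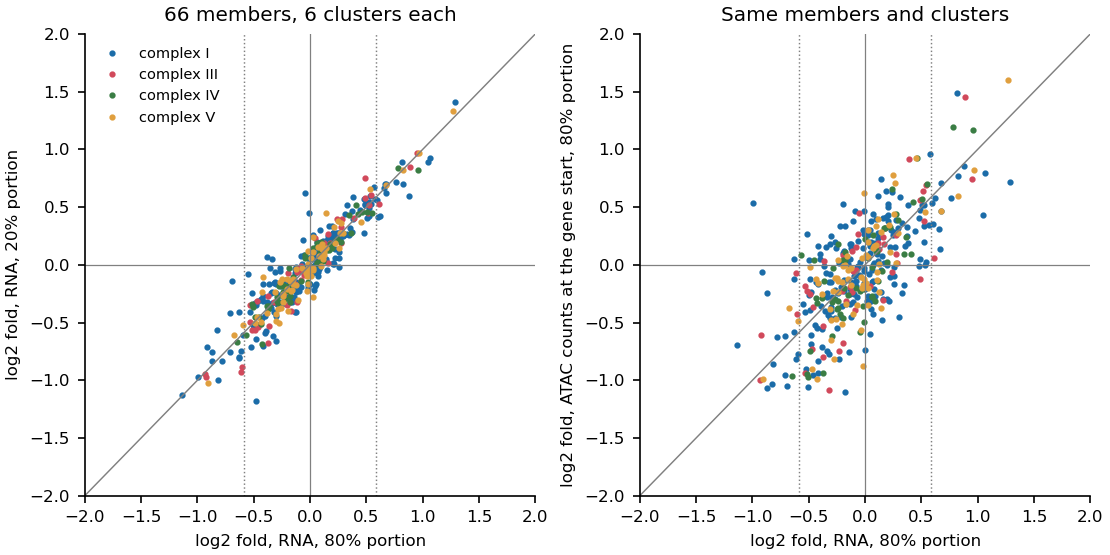
Log2 fold of 66 members (without COX7B2) in each of the 6 clusters against the mean of the others: RNA of the 80% portion (x axes) against RNA of the 20% portion (left, y axis) and against ATAC counts at the gene start in the 80% portion (right, y axis), coloured by complex. Dotted lines mark 1.5-fold in RNA and the grey diagonal equal values; of the 47 points beyond the dotted lines, 47 kept their direction in the 20% portion and 45 had the same direction in ATAC.

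Of the 47 calls in RNA, 45 (95.7%) had the same direction in ATAC and 27 (57.4%) also passed 1.5-fold there, beside 83.7% and 42.8% of the 22889 calls of all genes. The 47 calls came from 28 members and those of a gene are linked, so they are not 47 separate agreements. ATP5PB in cluster 2 had a log2 value of 1.27 in RNA and 1.60 in ATAC, and UQCRFS1 in cluster 1 0.88 and 1.45. NDUFV1 in cluster 4 had 1.28 and 0.72. These went together in both readouts. The exceptions were both in cluster 2: NDUFV3, with -0.99 in RNA and 0.54 in ATAC, and NDUFS1, with -0.63 and 0.05.

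Genes near a member often moved with it. Of the 47 calls, 40 had the sign of the median of the other tested genes within 5 Mb, and for all genes it was 73.8% of 26964 calls. The median size was 0.78 on the log2 scale for the members and 0.38 for their neighbours. In ATP5PB in cluster 2, the 63 neighbours had a median of 1.31, in UQCR10 in cluster 4 the 62 neighbours had 0.97, in UQCRFS1 in cluster 1 the 20 neighbours had 0.97, and in COX6B1 in cluster 1 the 121 neighbours had 0.83. Here the member and its region were alike. For NDUFV1 in cluster 4 the 172 neighbours had a median of -0.06, and for NDUFA13 in cluster 3 the 123 neighbours had -0.18, so these members were high and the medians around them were not. Single neighbours could still be high: NDUFS8, within 5 Mb of NDUFV1, was called higher in cluster 4 too, at 0.60. The part of a region's copy number in these values was not tested.

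The MT- genes varied more between clusters than the members did, by 2.96-fold at the median, and in clusters 0 and 5 every call had the same direction. All 13 were called in at least 1 cluster (background 77.4%), and in cluster 0 all 13 were lower (background 21%), at 0.290 (MT-ND3) to 0.564 (MT-CO1) times the mean of the other clusters. In cluster 5, 8 were higher (background 10.1%). MT-ND3, a core subunit of complex I, was at 56.1 CPM in cluster 0, 144 in cluster 1, 121 in cluster 2, 158 in cluster 3, 208 in cluster 4 and 335 in cluster 5. MT-CO2, which takes electrons from cytochrome c in complex IV, was at 465 CPM in cluster 0, 773 in cluster 1, 615 in cluster 2, 1024 in cluster 3, 1293 in cluster 4 and 1835 in cluster 5. Clusters 1 and 3 had 0 calls. In cluster 4 MT-ATP6 and MT-ND4 were higher (background 10.8%), at 1.70 and 1.51 times. Both fell short of the call there in the 20% portion, with log2 values of 0.30 and 0.32.

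In cluster 2, the MT- genes lay on both sides of the other clusters. MT-ND6, the one protein gene on the light strand of mitochondrial DNA, was at 50.7 CPM in cluster 0, 84.2 in cluster 1, 161 in cluster 2, 76.7 in cluster 3, 89.2 in cluster 4 and 104 in cluster 5. MT-ND4L was at 15.3 CPM in cluster 0, 23.6 in cluster 1, 43.6 in cluster 2, 26.6 in cluster 3, 33.7 in cluster 4 and 24.7 in cluster 5, and MT-ND5 at 97.4 CPM in cluster 0, 169 in cluster 1, 275 in cluster 2, 195 in cluster 3, 194 in cluster 4 and 245 in cluster 5. In MT-ND6, MT-ND4L and MT-ND5 cluster 2 was highest, at 1.99, 1.76 and 1.52 times the mean of the others (background 18.3%), whereas MT-CO1, MT-CO2, MT-CO3 and MT-ATP6 were lower there (background 28%), at 0.520, 0.570, 0.561 and 0.656 times. MT-ATP8 was at 1.46 times, below the call. MT-ND6 took 2.48% of the MT- UMIs of cluster 2 (95% exact interval 2.39 to 2.56%) and 0.690% to 1.01% of those of the others. In the 20% portion its share was 2.87% in cluster 2 and 0.572% to 1.10% in the others. MT-ATP8 overlaps MT-ATP6 and MT-ND4L overlaps MT-ND4 on the same strand, so the split of reads between these genes is uncertain.

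**Figure D5:**
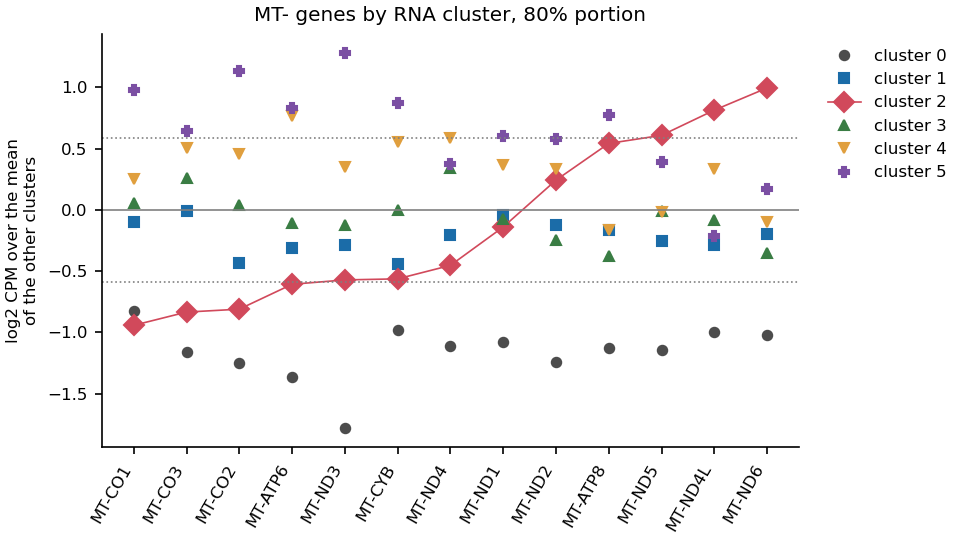
Log2 CPM of the 13 MT- genes (x axis, ordered by their value in cluster 2) in each RNA cluster over the mean of the other clusters (y axis), 80% portion; dotted lines mark 1.5-fold. Cluster 0 lies below the lower dotted line for all 13 genes, cluster 5 above the upper one for 8, and cluster 2 (joined by a line) runs from -0.94 for MT-CO1 to 1.00 for MT-ND6.

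Lists of related genes gave the following shares called in at least 1 cluster, each against the background of 77.4%. Of the subunits that the rule leaves out, 11 of 15 tested (73.3%) were called, 9 of them higher in some cluster and 5 lower: CYC1, which carries the heme of cytochrome c1 in complex III, was 1.66 times the mean of the others in cluster 2, SDHA of complex II was 1.91 times in cluster 4, and ATP5F1B, the catalytic subunit of the ATP synthase, was 1.68 times in cluster 3. COX4I1, a subunit of complex IV, was between 0.948 (cluster 4) and 1.14 times (cluster 3) in every cluster. Of the assembly factors, which put the complexes together, 19 of 37 were called (51.4%; 12 higher, 17 lower), and of the genes of mitochondrial DNA expression and its regulators 12 of 23 (52.2%; 7 higher, 10 lower). Among the latter, TFAM, which packs mitochondrial DNA, was at 101 CPM in cluster 0, 98.5 in cluster 1, 114 in cluster 2, 153 in cluster 3, 146 in cluster 4 and 109.9 in cluster 5. POLRMT, the mitochondrial RNA polymerase, was at 14.4 CPM in cluster 0, 24.6 in cluster 1, 15.7 in cluster 2, 29.2 in cluster 3, 36.3 in cluster 4 and 15.02 in cluster 5, and PPARGC1A, a coactivator of mitochondrial genes, at 3.22 CPM in cluster 0, 13.9 in cluster 1, 14.2 in cluster 2, 0.887 in cluster 3, 1.03 in cluster 4 and 1.44 in cluster 5. TFAM was highest in cluster 3 and POLRMT in cluster 4, and PPARGC1A was high in clusters 1 and 2 and low in the others. The part of these genes in the MT- RNA of the clusters was not tested. Neither was the part of mitochondrial RNA carried along with the isolated nuclei. The paper uses mitochondrial counts as a quality measure for called cells. Of the mitochondrial ribosomal proteins 38 of 77 were called (49.4%; 22 higher, 29 lower) and of the cytosolic ones 33 of 82 (40.2%; 24 higher, 23 lower), a share near that of the members. A gene can be higher in one cluster and lower in another. The summed UMIs of all 5 of these lists were lowest in cluster 0, as those of the members and of the MT- genes were. Highest over lowest ratios ran from 1.21 (mitochondrial ribosomal proteins) to 1.38 (cytosolic ribosomal proteins). The cytosolic ribosomal proteins took 9.73%, 11.4%, 11.3%, 12.1%, 13.1% and 13.5% from cluster 0 to cluster 5. This is the cluster order of the MT- genes and not that of the members. Spearman's rho of the MT- share with theirs was 0.46 over all nuclei, and -0.006 (cluster 3) to 0.27 (cluster 1) within clusters.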

How the data were processed

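RNA and ATAC were read in the same nuclei, with a single library of each in either portion. The values, as the authors deposited them, are raw counts (UMI counts per gene and ATAC counts per peak) made with Cell Ranger ARC 2.0.0 on GRCh38, for barcodes called as cells. The gene annotation and whether intronic reads were counted are not given in the sources used here. All barcodes of the 80% matrix were kept.

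From the counts, RNA clusters were made in Seurat 5.3.0 (R 4.3.3; 2000 variable genes, 30 principal components, 20 neighbours, Louvain, seed 0), at the lowest resolution with 6 clusters of at least 1% of nuclei. Values are CPM of summed UMIs, not divided by gene length, so levels of different genes were in general not compared. The exceptions are the shares of UMIs among the paired forms, the ring subunit genes and the MT- genes, which are not corrected for length either. The nearest mean profile by correlation gave each 20% nucleus its cluster; applied to the 80% nuclei, this put 97.7% where they already were. Scrublet (scanpy 1.11.5) marked doublets. Intervals (scipy 1.17.1, 95%) cover counting error only. Clusters stand for no replicates, so no p-value is given. The fold rule was tested on simulated data.

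The named genes are, for each cluster, the 3 members furthest up and down, the paired forms, the ring subunit genes and the MT- genes; any further name was picked with its values in view. The members and lists were chosen with earlier results of these data known. The values of 1 member are not reported here singly. Long-read data were not used here.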

Additional observations from a re-analysis of the deposited data

How the results depend on the processing

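No paired analysis was possible because each portion gave 1 library of a kind. With 1 library no result has a spread between replicates, so a value is called moved where it left the counting interval of the value reported, which is narrow, a count where it changed by more than 1.5 times, and the Spearman correlation where it changed by more than 0.05.

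Centring on the median of all genes changed the balance of the members' calls, COX7B2 included, from 24 higher and 29 lower to 39 higher and 16 lower. The members' share of UMIs, 1.37%, was 1.38% without doublets, 1.30% in the 20% matrix and 1.43% with MALAT1 and the MT- genes out of the total. The MT- share, 0.736%, was 0.739%, 0.709% and, without MALAT1, 0.760%. The ratio of the highest to the lowest cluster, 1.24 for the members, was 1.25 in the 20% matrix, 1.22 with ATAC clusters, where cluster 5 was lowest, and 1.23 without MALAT1 and the MT- genes. For the MT- genes it was 3.01, and 3.23 without doublets, 3.21 in the 20% matrix, 2.84 with ATAC clusters, 2.97 without MALAT1, 2.68 with medians over nuclei and 3.07 with only nuclei whose RNA and ATAC clusters are partners. Of the members, 29 were called, and 18 with at least 10000 UMIs, where 52 were tested. That alternative was added after the data were seen, as were the partner nuclei and the count without COX7B2. Under the others it was 24 to 35 members. All 13 MT- genes were called throughout, except in the 20% matrix, where only 12 were tested and all 12 were called. The Spearman correlation of both shares over nuclei, 0.31, was 0.40 in the 20% matrix and 0.25 at 5000 UMIs. A start peak was found for 70 members with windows of 500 and of 2000 bp too. Of 49 values of single named genes, 46 kept their side of 1.5-fold in the 20% matrix. A seed of 1 gave the same clusters.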

Other observations

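In 24 nuclei (0.366%) the MT- genes took over 5% of the UMIs, up to 12.4%, with a median of 7.16% against 0.627% in the other 6533. The median share on the members was 1.31% in these nuclei and 1.39% in the rest, and that on cytosolic ribosomal protein genes 11.8% and 11.0%. MT- UMIs are part of the total, so choosing nuclei by a high MT- share by itself lowers the members' share. The difference between 1.31% and 1.39% therefore carries no finding. The median depth of the 24 nuclei was 14318 UMIs against 13300.0. Of the 24 nuclei, 11 were in cluster 1, 4 each in clusters 0 and 2, 3 in cluster 4, 2 in cluster 5 and 0 in cluster 3. From cluster 0 to cluster 5, the clusters held 37.9%, 22.2%, 22.1%, 7.21%, 5.54% and 5.02% of all nuclei.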
